A study of Mus musculus with 9 samples.

Results

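The genes described here are 37 transporters, channels, enzymes and regulators by which the large intestine moves sodium, chloride, bicarbonate, potassium, water and organic solutes. They were listed by name, and each was read through the probe sets annotated to that gene alone. All 37 had such a probe set, out of 18193 genes with one on the array. The brightest probe set stood for the gene, and 35 of the 37 were bright enough to be tested. *Scnn1g* and *Slc26a6* were not tested.

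The study asked what 2 chemically induced missense mutations of *Muc2*, the gene of the main secreted mucin of the colon, do to the intestine. RNA came from the whole large intestine, with proximal and distal parts pooled in equal amounts, of 3 wild-type, 3 *Winnie* and 3 *Eeyore* mice, 1 Affymetrix array per mouse, all labelled male and 8 wk old. Wild-type mice were C57BL/6. *Winnie* mice carry a cysteine-to-tyrosine change in the D3 domain of Muc2 on C57BL/6. *Eeyore* mice carry a serine-to-proline change in its D4 domain and were kept on a mixed background of C57BL/6 and a NOD-SCID strain. Signals are linear intensities on a scale where each array has a trimmed mean of 500. Array medians lay between 118 and 129 in wild-type and between 87.9 and 99.3 in mutant mice. A signal of 41.1 or less is called dim below. Before any result, one conflict with the labels has to be stated. The signal of *Xist*, the RNA made from the inactive X chromosome of females, was between 7371 and 8261 in the 3 wild-type mice and between 9.13 and 107 in the 6 mutant mice. The signal of Y-linked *Eif2s3y* was between 4.73 and 24.1 in wild-type and between 1074 and 1454 in mutant mice. The arrays labelled wild-type thus carry the sex-linked transcripts of females, so that in every comparison with wild-type the sex, the *Muc2* allele and, for *Eeyore*, the strain background cannot be told apart. Both mutant strains were compared with the same 3 wild-type arrays.

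The colon absorbs most of the water that reaches it by taking up sodium with chloride across the surface epithelium, through sodium/proton exchange coupled to chloride/bicarbonate exchange and, distally, through the aldosterone-regulated sodium channel. Crypt cells can secrete chloride, which enters from the blood side with sodium and potassium, leaves through apical channels and needs potassium channels to sustain it. Water follows the salt, partly through aquaporins, and guanylin peptides shift the balance from absorption to secretion.

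Transport genes moved in both directions in both strains. In *Winnie* mice 14 of the 35 tested members passed the test at an adjusted p under 0.05 in limma, 4 higher and 10 lower than wild-type. Over all 11453 genes tested, 23.2% passed, 11.3% higher and 11.9% lower. In *Eeyore* mice 19 members passed, 6 higher and 13 lower, where 30.6% of all genes passed, 14% higher and 16.6% lower. These shares are 40.0% and 54.3% of the members, with more calls below than above wild-type. The members are bright, and bright probe sets were called more often. Over the 75th percentile of signal, 3548 of 11260 probe sets were called in *Winnie* (2095 higher, 1453 lower) and 4326 in *Eeyore* mice (2453 higher, 1873 lower). Of all 22519 tested, 4834 and 6589 were called. Of the 34 members over that percentile, 14 (4 higher, 10 lower) and 18 (6 higher, 12 lower) were called. Members had a median log2 fold change of -0.22 (*Winnie*) and -0.21 (*Eeyore*), beside -0.05 and -0.04 over all genes. The members were chosen with earlier results of these data known, so their shares and medians are a description and not a test.

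Side by side, 4 members were called higher in both strains (*Slc9a3*, *Clcn2*, *Slc51b* and *Aqp4*) and 8 were called lower in both (*Slc20a1*, *Slc4a4*, *Car2*, *Slc12a2*, *Kcnq1*, *Slc12a7*, *Slc51a* and *Aqp1*). No member was called in opposite directions, 14 were called in neither strain, and the strains share their controls. Of 54 tested genes in a wider list of other transport genes, 4 were called higher and 12 lower in both strains. The share of all genes called alike in both strains was not counted, so these counts are not read as particular to the members. The balance of higher and lower calls depended on the scaling. When each array was centred on the median of all its probe sets, every log2 change against wild-type moved up by about 0.41 in *Winnie* and 0.33 in *Eeyore* mice, and the split became 12 higher and 7 lower, and 9 higher and 5 lower. Over all genes, the share called higher under that centring was 37.1% (*Winnie*) and 32.4% (*Eeyore*), and the share called lower was 3.96% and 7.76%. The members' higher share of 34.3% and 25.7% thus did not exceed that of all genes, and their lower share was 20% and 14.3%. Under this centring the calls on *Slc5a1*, *Car2* and *Slc12a2* in *Winnie* mice were lost (adjusted p from 0.204 to 0.816), as were those on *Slc9a2*, *Nr3c2*, *Slc4a4*, *Car2*, *Slc12a2*, *Slc12a7*, *Slc16a1* and *Gucy2c* in *Eeyore* mice (adjusted p from 0.0853 to 0.959). Member calls gained under it were all higher. They were *Scnn1a*, *Atp1b1*, *Sgk1*, *Slc26a3*, *Kcne3*, *Atp12a*, *Slc16a1* and *Aqp8* in *Winnie*, and *Atp1b1*, *Kcnn4* and *Kcne3* in *Eeyore* mice. When arrays were centred on epithelial markers, the split was 4 higher and 17 lower, and 5 higher and 19 lower, with the rise of *Hsd11b2* in *Eeyore* mice lost (0.40, adjusted p = 0.125). All genes tilted to lower calls with it, to 19.4% lower against 6.38% higher (*Winnie*) and 33.5% lower against 5.26% higher (*Eeyore*). Member calls gained under epithelial centring were all lower. In *Winnie* mice they were *Slc9a2*, *Scnn1b*, *Slc6a14*, *Atp1b1*, *Nr3c2*, *Car4* and *Gucy2c*. In *Eeyore* mice they were *Slc5a1*, *Slc6a14*, *Slc26a3*, *Car1*, *Car4* and *Guca2b*. Calls that passed in each alternative, other than a 2-fold threshold, were those on *Slc20a1*, *Clcn2*, *Kcnq1*, *Slc51a*, *Slc51b*, *Aqp1* and *Aqp4* in both strains, and on *Slc4a4*, *Slc12a7* and *Guca2b* in *Winnie* mice.

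**Figure D1:**
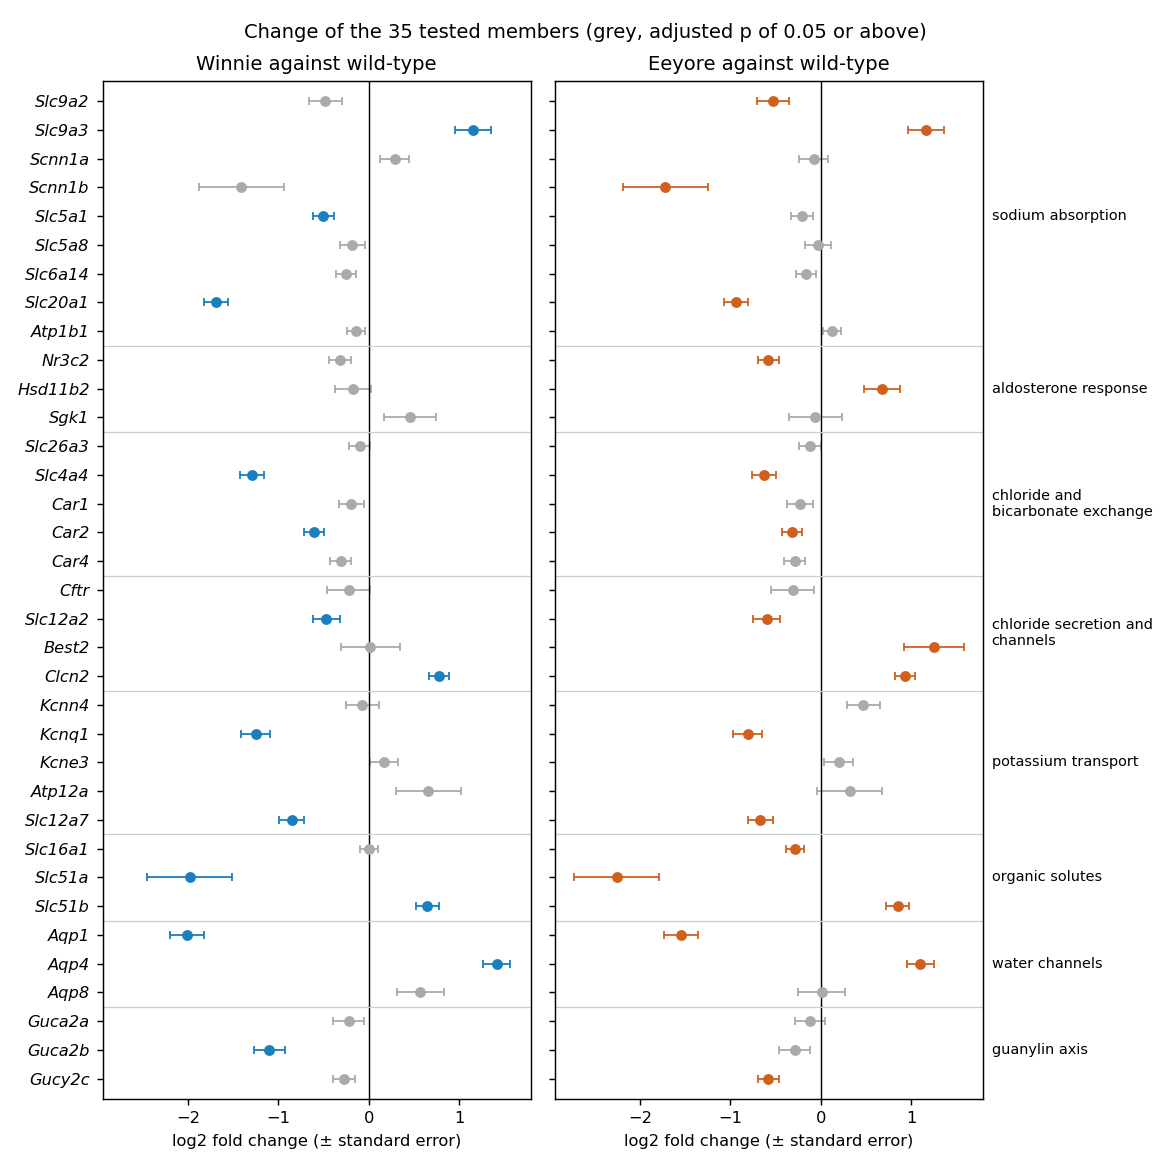
Log2 fold change (horizontal axis, points with standard errors, n = 3 mice per group) of the 35 tested members, grouped by role, in *Winnie* (left, blue) and *Eeyore* mice (right, orange) against the same wild-type mice. Grey points did not pass an adjusted p of 0.05. *Aqp1*, *Slc51a* and *Slc20a1* lie far to the left in both panels, and *Aqp4* and *Slc9a3* to the right.

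Markers of the cell types in the gut wall differed between the groups. All 11 smooth muscle markers were lower in both strains, with median log2 changes of -1.13 and -1.56, and their summed signal ran from 171299.6 to 175909 in wild-type, from 77981 to 84009 in *Winnie* and from 62122 to 68989 in *Eeyore* mice. Adipocyte markers were lower for 3 of 4 tested genes in each strain, and their summed signal ran from 8931 to 11051, from 2475 to 6479 and from 636 to 1856. Endothelial markers were lower for 1 and 3 of 6, and neuronal and glial markers for 2 and 3 of 5. Epithelial markers were higher for 3 of 12 in *Winnie* and 6 of 12 in *Eeyore* mice with none lower, and their sum ran from 184788 to 192717, from 210608 to 220494 and from 230052 to 249204. Leukocyte markers were called for 0 of 6 in *Winnie* and for 1 of 6, higher, in *Eeyore* mice. Their summed signal ran from 5876 to 7259 in wild-type and from 7134 to 8773 in *Winnie* mice, and was 7651, 12477 and 15859 in *Eeyore* mice, all above wild-type. Markers of distal hindgut position were not called in either strain (0 of 5 tested), but single mice stood apart in their sum, which ran from 7327 to 9194 in wild-type and was 4989, 11136 and 7451 in *Winnie* mice and 7944, 8806 and 12774 in *Eeyore* mice. Over all genes, 11.9% (*Winnie*) and 16.6% (*Eeyore*) were called lower. The marker counts depended on the scaling. Under median centring, lower calls were 10 and 11 of 11 for smooth muscle and 1 and 3 of 4 for adipocytes. They were 0 and 2 of 6 for endothelium and 0 and 2 of 5 for neurons and glia. Higher calls were then 11 of 12 for epithelium in each strain, 1 and 4 of 6 for leukocytes and 1 and 2 of 5 for distal hindgut. No marker in these lists was listed at 0. In a sample of whole tissue, fewer cells of a type and less RNA per cell cannot be told apart. The part that these shifts have in the changes of transport genes was not tested, apart from the epithelial centring above.

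**Figure D2:**
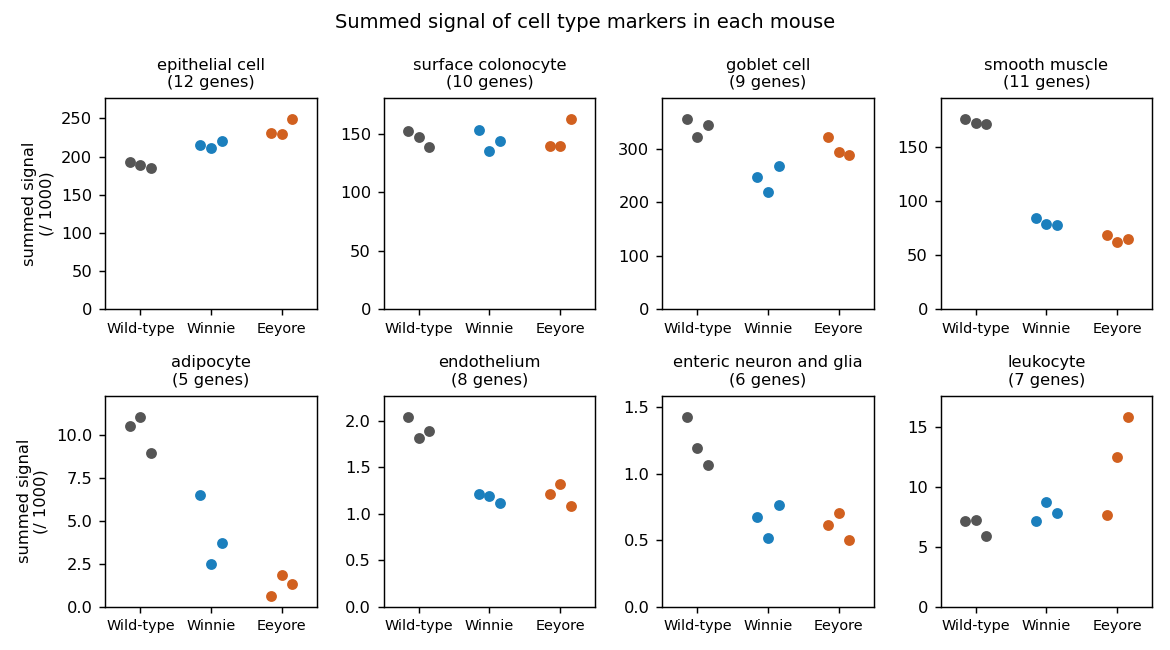
Summed signal (vertical axis, divided by 1000, linear, from 0) of the brightest probe sets of 8 lists of cell type markers, 1 point per mouse. Smooth muscle and adipocyte sums in mutant mice lie below every wild-type mouse, and epithelial sums lie above every wild-type mouse.

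Among the genes of sodium absorption, the exchanger *Slc9a3* rose and the phosphate carrier *Slc20a1* fell in both strains, while several other uptake routes were not called. Of 9 tested genes, 1 was higher and 2 were lower in *Winnie* mice, and 1 was higher and 3 were lower in *Eeyore* mice. These are 33.3% and 44.4% of the group, beside 23.2% and 30.6% of all genes, and with so few genes the shares are not read further, here or in the smaller groups below. *Slc9a3*, the apical sodium/proton exchanger that drives neutral salt uptake, had signals of 1494, 1617 and 1286 in wild-type, 4029, 2214 and 3897 in *Winnie* mice and 3491, 3134 and 3141 in *Eeyore* mice. Every mutant mouse lay above every wild-type mouse. The rise was 2.24-fold in *Winnie* mice (log2 1.16 ± 0.20 SE, limma adjusted p = 0.00199) against 2.23-fold in *Eeyore* mice (adjusted p = 0.00128). It rests on a single probe set. A second and dimmer probe set of *Slc9a3* did not pass in either strain (log2 -0.00 and -1.11, adjusted p = 0.999 and 0.43), and with the mean over both the call was lost (0.58 and 0.02, adjusted p = 0.494 and 0.981).

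*Slc20a1*, a sodium-dependent phosphate carrier, had signals of 9508, 11255 and 9348 in wild-type, 2638, 3142 and 3560.5 in *Winnie* mice and 5394, 4628 and 5645 in *Eeyore* mice. The 3 groups did not overlap, with *Winnie* the lowest. The fall was 3.24-fold in *Winnie* mice (log2 -1.69 ± 0.13, adjusted p = 1.3e-05) against 1.92-fold in *Eeyore* mice (-0.94 ± 0.13, adjusted p = 0.00034). A second probe set of *Slc20a1* was also lower in both (-2.16 and -1.58).

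*Scnn1b*, the beta subunit of the epithelial sodium channel through which aldosterone drives electrogenic uptake, had low signals throughout. They were 196, 161 and 239 in wild-type, 54.1, 115 and 64 in *Winnie* mice and 97, 35 and 62.5 in *Eeyore* mice. No mutant mouse reached the lowest wild-type mouse. The mean signal was 199 in wild-type, but 77.8 in *Winnie* and 64.8 in *Eeyore* mice, both under the filter level of 85.9. Because the filter takes the mean over all arrays, *Scnn1b* was tested on account of its wild-type signals. *Eeyore* mouse 2 was dim, and the size of the fall is uncertain. The fall passed the test in *Eeyore* (log2 -1.72 ± 0.47, adjusted p = 0.0174) and fell short of it in *Winnie* mice (-1.41 ± 0.47, adjusted p = 0.0506). Without *Eeyore* mouse 2 the *Eeyore* value was -1.33 (adjusted p = 0.0573), without wild-type mouse 1 the adjusted p was 0.0514 and without wild-type mouse 3 it was 0.0677. The *Winnie* value passed without *Eeyore* mouse 1 or 2 or *Winnie* mouse 2 (adjusted p = 0.0398, 0.0315 and 0.0467). The alpha subunit *Scnn1a*, with signals of 761 to 988 in wild-type mice, was not called in *Winnie* (0.29 ± 0.16, adjusted p = 0.196) or *Eeyore* mice (-0.08 ± 0.16, adjusted p = 0.747). The gamma subunit *Scnn1g* ranged from 7.19 to 128 over the 9 mice, with dim signals in wild-type and *Eeyore* mice, and lay under the filter.

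The other sodium-coupled carriers moved little. *Slc5a1*, the sodium/glucose cotransporter, was lower in *Winnie* mice (2169.7, 2812 and 2451, against 3282, 3827 and 3334 in wild-type), a log2 change of -0.50 ± 0.12 (adjusted p = 0.0108) that did not pass without wild-type mouse 2 (-0.42, adjusted p = 0.0552). Its second probe set did not pass (-0.35, adjusted p = 0.165), and in *Eeyore* mice it was not called (-0.21, adjusted p = 0.183). *Slc9a2*, a second sodium/proton exchanger of the apical membrane, was called lower in *Eeyore* (-0.53 ± 0.18, adjusted p = 0.0406) but not in *Winnie* mice (-0.48 ± 0.18, adjusted p = 0.0765). That *Eeyore* call was lost on leaving out *Eeyore* mouse 1 or 2, any single wild-type mouse, or *Winnie* mouse 3 (adjusted p from 0.0506 to 0.147), and the *Winnie* value passed without *Winnie* mouse 1 (adjusted p = 0.0376).

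*Slc5a8*, a carrier of short-chain fatty acids with sodium, and *Slc6a14*, a carrier of neutral and basic amino acids with sodium and chloride, were not called. Their log2 changes were -0.18 and -0.25 in *Winnie* mice, against -0.03 and -0.16 in *Eeyore* mice, and the groups overlapped. *Atp1b1*, the beta subunit of the sodium pump that powers all these routes, was also not called, with a 95% interval of -0.35 to 0.07 in *Winnie* and of -0.09 to 0.33 in *Eeyore* mice. Its 4 tested probe sets ran from -0.14 to 0.11 in *Winnie* and from 0.07 to 0.20 in *Eeyore* mice.

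In the aldosterone response, on the deposited scale, no member was called in *Winnie* mice. In *Eeyore* mice the receptor was called lower and the enzyme that guards it higher, and each of these calls was lost under another scaling. *Nr3c2*, the mineralocorticoid receptor, had signals of 1998, 2554 and 2606 in wild-type, 1937, 1976 and 1783 in *Winnie* mice and 1603, 1545 and 1614 in *Eeyore* mice. Neither mutant group overlapped with wild-type. The log2 change was -0.58 ± 0.12 in *Eeyore* (adjusted p = 0.00459) and -0.32 ± 0.12 in *Winnie* mice (adjusted p = 0.0811), the latter passing without wild-type mouse 1 (-0.44, adjusted p = 0.0316). Under median centring the *Eeyore* call was lost (-0.25, adjusted p = 0.193).

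*Hsd11b2*, which inactivates glucocorticoids and so leaves the receptor to aldosterone, had signals of 5211, 5042 and 5854 in wild-type, 5336, 3778 and 5366 in *Winnie* mice and 12274, 7640.1 and 6702 in *Eeyore* mice. All *Eeyore* mice lay above the other 6, and mouse 1 stood well above the other two. The rise in *Eeyore* mice was 0.68 ± 0.20 (adjusted p = 0.0245), and it was not called without *Eeyore* mouse 1 (0.42, adjusted p = 0.0648), wild-type mouse 1 (adjusted p = 0.0686) or wild-type mouse 2 (adjusted p = 0.0797). Nor was it called with epithelial centring (0.40, adjusted p = 0.125), with quantile normalization (0.54, adjusted p = 0.0662) or without the intensity trend of the fit (adjusted p = 0.0726). *Sgk1*, the kinase that aldosterone induces and that keeps sodium channels at the membrane, varied within groups. Its signals were 3588, 3111 and 4557 in wild-type, 5645, 3921 and 6029.8 in *Winnie* mice and 6359.5, 2635 and 2676 in *Eeyore* mice. No difference of *Sgk1* from wild-type was called (0.46 ± 0.29 and -0.06 ± 0.29, adjusted p = 0.281 and 0.897).

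Aldosterone receptors and their relatives bind paired half-sites, and the promoter of *Sgk1* is shown because it was the sole member window with such a pair. Promoter windows of 300 bases (250 before and 50 after an annotated start) were taken from RefSeq for GRCm38.p6, where 26 members had at least 1 window. A pair of AGAACA and TGTTCT separated by any 3 bases was found in 3 of 32851 windows (0.00913%) and, among members, in 1 of 6 windows of *Sgk1*. That window lies on the plus strand at chr10:21993640-21993939, and the match, in capitals, starts 189 bases before the start site.
Sgk1: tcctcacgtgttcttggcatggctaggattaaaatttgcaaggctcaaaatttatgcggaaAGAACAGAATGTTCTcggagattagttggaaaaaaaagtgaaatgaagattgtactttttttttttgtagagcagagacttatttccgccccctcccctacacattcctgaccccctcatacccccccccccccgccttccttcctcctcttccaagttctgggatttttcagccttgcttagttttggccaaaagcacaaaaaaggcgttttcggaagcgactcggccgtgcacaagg
A match is a description of these letters and not a measured binding site.

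Among genes of chloride and bicarbonate exchange, the basolateral bicarbonate importer *Slc4a4* and carbonic anhydrase *Car2* were lower in both strains, while the main apical exchanger *Slc26a3* was not called on its brightest probe set. In each strain 2 of 5 tested genes were lower and none was higher. With arrays centred on epithelial markers, 3 of 5 were called lower in *Winnie* and 5 of 5 in *Eeyore* mice. The calls gained in *Eeyore* mice were *Slc26a3* (-0.40, adjusted p = 0.0116), *Car1* (-0.51, adjusted p = 0.0133) and *Car4* (-0.56, adjusted p = 0.00218). Under median centring 1 was called higher and 1 lower in *Winnie* mice, and 0 in *Eeyore* mice. *Slc4a4*, the sodium/bicarbonate cotransporter, had signals of 2187, 2212 and 2702 in wild-type, 913, 1029.5 and 958 in *Winnie* mice and 1507, 1396 and 1668 in *Eeyore* mice. The 3 groups were separate, with *Winnie* the lowest. The log2 change was -1.29 ± 0.13 in *Winnie* mice (2.44-fold, adjusted p = 0.000111) against -0.63 ± 0.13 in *Eeyore* mice (1.55-fold, adjusted p = 0.00351). All 4 tested probe sets of *Slc4a4* were called lower in both strains, from -2.18 to -1.17 in *Winnie* and from -1.53 to -0.63 in *Eeyore* mice. The *Eeyore* call was lost with the mean over all its probe sets, a dim untested one included (-0.63, adjusted p = 0.087), and with arrays centred on the median (-0.31, adjusted p = 0.116).

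Carbonic anhydrases turn carbon dioxide and water into the bicarbonate and protons that the exchangers use. *Car2*, a cytosolic form, fell from 23183, 23709 and 21807 in wild-type to 16534, 12833 and 16372 in *Winnie* mice (log2 -0.60 ± 0.11, adjusted p = 0.0033). In *Eeyore* mice it was 20159, 18924 and 16283 (-0.32 ± 0.11, adjusted p = 0.0481). This smaller fall was not called on leaving out *Eeyore* mouse 2 or 3, any single wild-type mouse, or *Winnie* mouse 3, with adjusted p from 0.0572 to 0.158. *Car1*, another cytosolic form, ranged from 49327 to 63020.1 in wild-type and from 37532 to 56246 in mutant mice and was not called (-0.19 and -0.23, adjusted p = 0.361 and 0.247).

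*Car4*, the form anchored on the outer membrane, was not called on its brightest probe set (-0.31 and -0.29, adjusted p = 0.0863 and 0.0981), but a second probe set was lower in both strains (-0.49 and -0.50, adjusted p = 0.0348 and 0.025). The brightest also passed in both comparisons without *Eeyore* mouse 3 (adjusted p = 0.0322 and 0.0125). *Slc26a3*, the chloride/bicarbonate exchanger whose loss causes chloride-losing diarrhoea, had signals of 18435, 19208 and 19125 in wild-type, 18817, 14559.5 and 19934 in *Winnie* mice and 15602, 16868 and 19999 in *Eeyore* mice. The groups overlapped, and the 95% interval of the log2 change was -0.36 to 0.16 in *Winnie* and -0.38 to 0.14 in *Eeyore* mice. Of its 4 tested probe sets none was called in *Winnie*, and 2 dimmer ones were called lower in *Eeyore* mice (-0.31 and -1.23, adjusted p = 0.0486 and 0.0182). *Slc26a6*, a related exchanger, ranged from 7.13 to 127 with dim signals in every group.

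Of the genes that carry chloride secretion and chloride channels, *Clcn2* rose and *Slc12a2* fell in both strains, *Best2* rose in *Eeyore* mice, and *Cftr* was not called. *Clcn2*, a chloride channel of surface cells on the blood side, had signals of 1884, 1704 and 1589.8 in wild-type, 2736, 2902 and 3284 in *Winnie* mice and 3118, 3215 and 3498 in *Eeyore* mice. All 6 mutant mice were above all wild-type mice. The rise was 1.72-fold in *Winnie* mice (log2 0.78 ± 0.11, adjusted p = 0.000799) against 1.9-fold in *Eeyore* mice (0.93 ± 0.11, adjusted p = 0.000175).

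*Slc12a2*, the cotransporter that loads crypt cells with chloride, had signals of 9209, 9174 and 7433 in wild-type, 5608, 7041 and 6045 in *Winnie* mice and 7048, 5386 and 4791 in *Eeyore* mice. Neither mutant group reached the lowest wild-type value, though the gap was small. The log2 change was -0.47 ± 0.15 in *Winnie* mice (adjusted p = 0.0396) against -0.60 ± 0.15 in *Eeyore* mice (adjusted p = 0.00988). The *Winnie* call was lost without wild-type mouse 1 or 2, *Winnie* mouse 1 or 3, or *Eeyore* mouse 2 (adjusted p from 0.0512 to 0.13), although its other 2 probe sets were also called lower in *Winnie* mice (-0.83 and -0.66).

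*Best2*, a bicarbonate-conducting channel of goblet cells, had signals of 352, 285 and 722 in wild-type, 307, 459 and 534 in *Winnie* mice and 1398, 857 and 809 in *Eeyore* mice. *Winnie* and wild-type mice overlapped, and all *Eeyore* mice were higher. The log2 change in *Eeyore* mice was 1.25 ± 0.33 (2.37-fold, adjusted p = 0.0157), and it was not called without *Eeyore* mouse 1 (1.00, adjusted p = 0.0543), wild-type mouse 1 (1.13, adjusted p = 0.0582) or wild-type mouse 2 (0.97, adjusted p = 0.0701). Goblet cell markers moved in both directions beside it: 4 of 9 were lower and 1 higher in *Winnie*, 3 lower and 1 higher in *Eeyore* mice, with summed signals of 323267 to 356397 in wild-type, 218820.0 to 268818 in *Winnie* and 288306 to 323506 in *Eeyore* mice. *Cftr*, the apical chloride channel mutated in cystic fibrosis, was at 2033, 2209.6 and 2276 in wild-type, 1937, 1527 and 2194 in *Winnie* mice and 2448, 2001 and 1092 in *Eeyore* mice. Its groups overlapped (-0.22 ± 0.24 and -0.31 ± 0.24, adjusted p = 0.551 and 0.356).

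**Figure D3:**
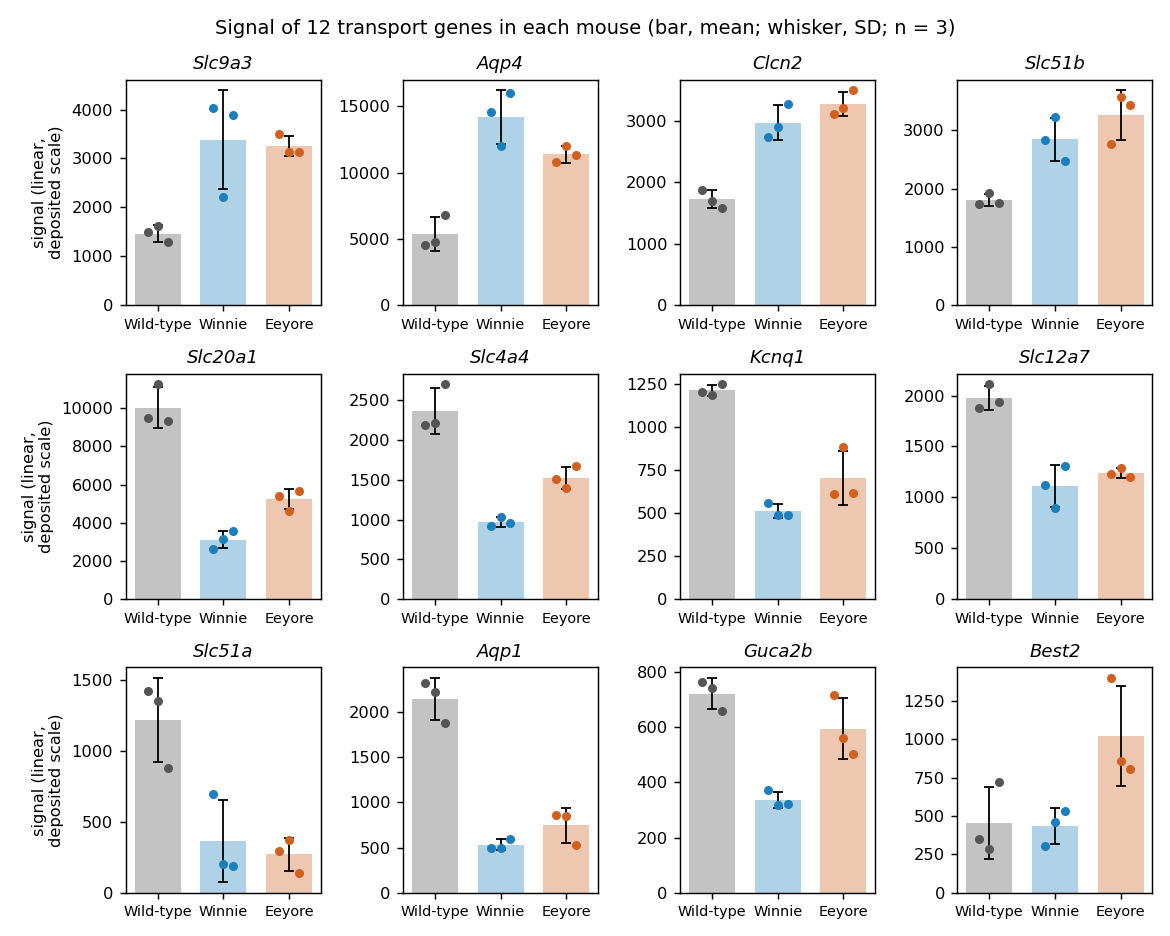
Signal (vertical axis, linear, deposited scale, from 0) of 12 members in each of the 9 mice. Points are mice, bars are group means and whiskers are SD (n = 3). *Slc20a1* and *Slc4a4* form 3 separate groups with *Winnie* lowest, whereas *Aqp4*, *Clcn2*, *Slc9a3* and *Slc51b* are higher in every mutant mouse than in any wild-type mouse.

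Potassium transport genes held 2 called lower in both strains and none called higher, though under median centring 2 were called higher in each strain. *Kcnq1*, the pore of the basolateral potassium channel that sustains chloride secretion driven by cyclic AMP, had signals of 1201, 1188 and 1248 in wild-type, 560.1, 486 and 489.9 in *Winnie* mice and 613, 885 and 614 in *Eeyore* mice. Every mutant mouse was below every wild-type mouse. The fall was 2.37-fold in *Winnie* mice (log2 -1.25 ± 0.16, adjusted p = 0.000503) against 1.75-fold in *Eeyore* mice (-0.81 ± 0.16, adjusted p = 0.00366). *Kcne3*, the subunit that holds this channel open in colonic crypts, was not called (0.17 ± 0.16 and 0.20 ± 0.16, adjusted p = 0.475 and 0.374). Under median centring, which moves all genes up, *Kcne3* was called higher in both strains (0.58 and 0.53, adjusted p = 0.0257 and 0.0399). *Slc12a7*, a potassium/chloride cotransporter, had signals of 1877, 2110.4 and 1941 in wild-type, 1124, 894 and 1305 in *Winnie* mice and 1227, 1292 and 1199 in *Eeyore* mice. Its log2 change was -0.85 ± 0.14 in *Winnie* mice (adjusted p = 0.00188) against -0.67 ± 0.14 in *Eeyore* mice (adjusted p = 0.00456), and a second probe set passed in *Winnie* (-0.75, adjusted p = 0.0104) but not in *Eeyore* mice (-0.20, adjusted p = 0.424).

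*Kcnn4*, the calcium-activated potassium channel of the same cells, was at 1846, 1868 and 1593 in wild-type, 1283, 2052 and 1813 in *Winnie* mice and 2669, 2725 and 1989.5 in *Eeyore* mice. It was not called in *Winnie* (-0.07, adjusted p = 0.817) or *Eeyore* mice (0.47 ± 0.18, adjusted p = 0.0681), and the *Eeyore* value passed without *Eeyore* mouse 3 (0.61, adjusted p = 0.0296) or *Winnie* mouse 1 (adjusted p = 0.0315) and reached 0.05 without *Winnie* mouse 2. *Atp12a*, the colonic proton/potassium pump, was at 6299, 7957 and 6633 in wild-type, 9109, 12567 and 11513 in *Winnie* mice and 5460.2, 6054 and 19565 in *Eeyore* mice. *Winnie* mice lay above wild-type, and *Eeyore* mice were split, with mouse 3 at the top of all 9 and the others at the bottom. Neither strain was called over all mice (0.66 and 0.32 ± 0.36, adjusted p = 0.211 and 0.535). Without *Eeyore* mouse 3, whose spread enters the shared variance, the same *Winnie* change of *Atp12a* passed (0.66, adjusted p = 0.00501).

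Among carriers of organic solutes, the partners *Slc51a* and *Slc51b*, which together form the basolateral exporter of bile acids, moved in opposite directions in both strains. *Slc51a* had signals of 1419.6, 1354 and 880.2 in wild-type, 698, 206 and 192 in *Winnie* mice and 297, 373 and 139 in *Eeyore* mice. *Slc51b* had signals of 1729, 1922 and 1757 in wild-type, 2828, 3227 and 2481 in *Winnie* mice and 2768, 3568 and 3431 in *Eeyore* mice. Neither gene's mutant mice overlapped with wild-type. *Slc51a* fell 3.94-fold in *Winnie* mice (log2 -1.98 ± 0.47, adjusted p = 0.0115) against 4.78-fold in *Eeyore* mice (-2.26 ± 0.47, adjusted p = 0.00416). *Slc51b* rose 1.57-fold (0.65 ± 0.13, adjusted p = 0.00511) and 1.8-fold (0.85 ± 0.13, adjusted p = 0.000762). Each rests on 1 probe set. *Slc16a1*, the proton-coupled carrier by which colonocytes take up butyrate, was at 7681, 9491 and 9493 in wild-type and at 8541, 8817 and 9246 in *Winnie* mice, where it was not called (0.00, adjusted p = 0.987). In *Eeyore* mice it was at 7201, 7190.3 and 7384 (-0.29 ± 0.10, adjusted p = 0.0412). This call on *Slc16a1* was lost on leaving out any single *Eeyore* mouse, wild-type mouse 2 or 3, or *Winnie* mouse 3 (adjusted p from 0.0563 to 0.151).

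The promoters of the bile acid exporter's genes are shown because their transcripts parted. Nuclear receptors such as the bile acid receptor bind copies of AGGTCA, and both windows held a single copy on one strand or the other. It was present in 5340 of 32851 windows (16.3%) and in windows of 8 of the 26 members, the others being *Scnn1b*, *Sgk1*, *Slc12a7*, *Slc20a1*, *Slc26a3* and *Slc4a4*. The windows lie at chr16:32487830-32488129 and chr9:65422724-65423023 of GRCm38.p6, both on the minus strand and printed along the gene, with the motif in capitals. It starts 58 bases before the start site of *Slc51a*, where it reads on the opposite strand, and 203 bases before that of *Slc51b*.
Slc51a: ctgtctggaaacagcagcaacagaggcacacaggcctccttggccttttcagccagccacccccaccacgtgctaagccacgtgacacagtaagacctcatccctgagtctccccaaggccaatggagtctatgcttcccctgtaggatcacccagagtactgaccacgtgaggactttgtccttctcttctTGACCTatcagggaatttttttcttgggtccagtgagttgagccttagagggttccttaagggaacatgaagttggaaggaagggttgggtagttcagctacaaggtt
Slc51b: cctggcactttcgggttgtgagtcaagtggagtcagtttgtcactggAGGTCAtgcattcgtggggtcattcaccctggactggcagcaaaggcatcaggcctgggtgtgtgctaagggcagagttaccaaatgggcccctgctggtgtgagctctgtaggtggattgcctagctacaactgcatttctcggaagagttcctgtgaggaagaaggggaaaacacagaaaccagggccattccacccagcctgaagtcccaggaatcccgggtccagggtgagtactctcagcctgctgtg
Both windows hold the letters, and the transcripts changed in opposite directions.

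In *Winnie* mice the water channels gave both the largest rise and the largest fall among the tested members. *Aqp4*, a basolateral water channel of the colonic epithelium, had signals of 4535, 4781 and 6809 in wild-type, 14551, 12041 and 15985 in *Winnie* mice and 10777, 12038 and 11296 in *Eeyore* mice. Every mutant mouse was far above every wild-type mouse. The rise was 2.67-fold in *Winnie* mice (log2 1.42 ± 0.15, adjusted p = 0.000157) against 2.15-fold in *Eeyore* mice (1.10 ± 0.15, adjusted p = 0.000325). All 3 probe sets of *Aqp4* rose, by 1.21 to 1.67 in *Winnie* and 1.10 to 1.56 in *Eeyore* mice. *Aqp1*, which in the gut is a channel of small vessels, had signals of 2321, 2219.5 and 1877 in wild-type, 495, 500.3 and 599.8 in *Winnie* mice and 863, 845 and 523 in *Eeyore* mice. It fell 4.02-fold in *Winnie* mice (-2.01 ± 0.19, adjusted p = 9.0e-05) against 2.94-fold in *Eeyore* mice (-1.55 ± 0.19, adjusted p = 0.000201). The endothelial markers beside it had median log2 changes of -0.62 and -0.69, and their summed signal ran from 1815 to 2042 in wild-type, from 1113 to 1214 in *Winnie* and from 1078 to 1323 in *Eeyore* mice.

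*Aqp8*, a water channel of surface colonocytes, was at 8750.1, 9544 and 9396 in wild-type, 14010.2, 13147 and 13949 in *Winnie* mice and 5987, 8193 and 16173 in *Eeyore* mice. As with *Atp12a*, *Winnie* mice lay above wild-type while *Eeyore* mouse 3 was the highest of all mice and the other *Eeyore* mice were the lowest. Over all mice it was not called in *Winnie* (0.57 ± 0.26, adjusted p = 0.129) or *Eeyore* mice (0.01 ± 0.26, adjusted p = 0.991). Without *Eeyore* mouse 3 the *Winnie* change passed (0.57, adjusted p = 0.0046), the *Eeyore* change passed in the lower direction (-0.40, adjusted p = 0.0358), and the strains differed by -0.97 (adjusted p = 0.00197). Without *Eeyore* mouse 1 the *Winnie* change of *Aqp8* also passed (adjusted p = 0.044). *Eeyore* mouse 3 also had the highest sums of distal hindgut (12774), leukocyte (15859), surface colonocyte (162845) and epithelial markers (249204) of the 9 mice. Their part in its *Aqp8* and *Atp12a* signals was not tested.

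**Figure D4:**
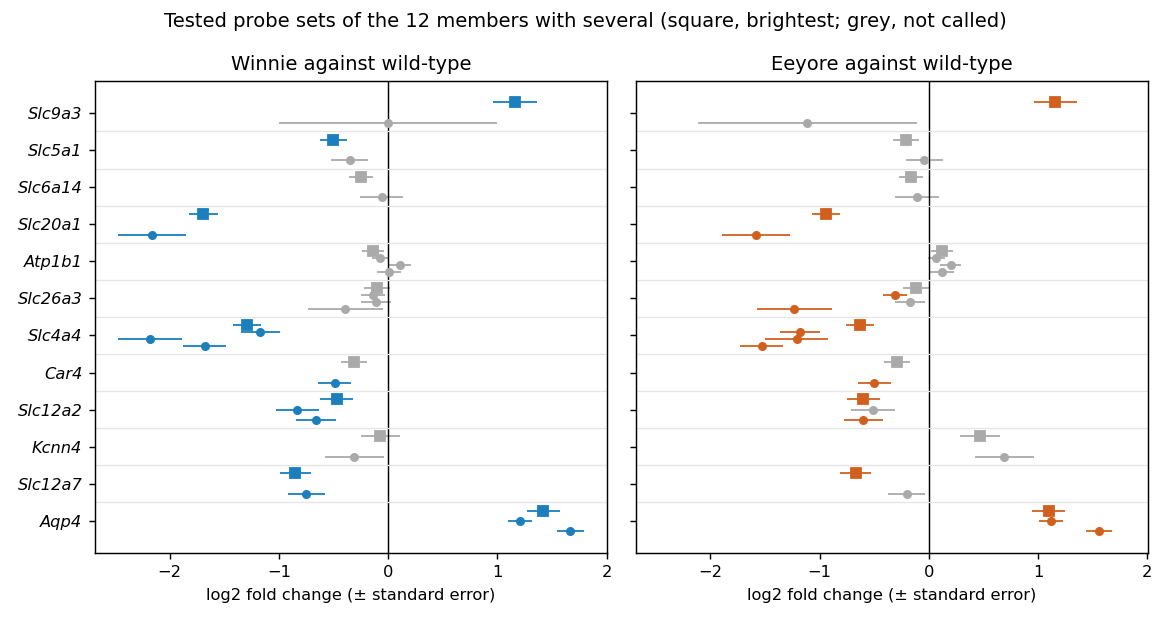
Log2 fold change with standard error (horizontal axis, n = 3 mice per group) of each tested probe set of the 12 members that have several, in *Winnie* (left) and *Eeyore* mice (right) against wild-type. Squares mark the brightest probe set and grey points did not pass. Those of *Slc4a4*, *Slc20a1* and *Aqp4* lie on the same side of 0 throughout, whereas the second one of *Slc9a3* does not follow the first.

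Across the members, 12 had more than 1 tested probe set, and in no comparison were the probe sets of a member called in opposite directions. They differed in whether they passed for 3 members in *Winnie* (*Car4*, *Slc5a1* and *Slc9a3*) and for 5 in *Eeyore* mice (*Car4*, *Slc12a2*, *Slc12a7*, *Slc26a3* and *Slc9a3*).

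In the guanylin axis, on the deposited scale, uroguanylin was called lower in *Winnie* mice alone and the receptor in *Eeyore* mice alone. *Guca2a*, encoding guanylin, a peptide that raises cyclic GMP in colonocytes and with it salt secretion, was at 40376, 35364 and 29830.1 in wild-type, 34929.6, 24044 and 32219 in *Winnie* mice and 38159.7, 34869 and 24913 in *Eeyore* mice. The groups overlapped and it was not called (-0.22 and -0.12 ± 0.17, adjusted p = 0.388 and 0.627). *Guca2b*, which encodes uroguanylin and lies next to *Guca2a* on chromosome 4 with 0 protein-coding genes between them, was at 765, 741 and 659 in wild-type, 371, 317 and 323 in *Winnie* mice and 716, 562 and 503 in *Eeyore* mice. *Winnie* mice were below all the others. Its change was -1.10 ± 0.17 in *Winnie* mice (2.14-fold, adjusted p = 0.0013) against -0.29 ± 0.17 in *Eeyore* mice (adjusted p = 0.214). *Gucy2c*, the receptor guanylate cyclase for both peptides, was at 2548, 2375 and 2116 in wild-type, 1713, 1980.0 and 2164 in *Winnie* mice and 1477, 1573 and 1634 in *Eeyore* mice. Its change was -0.58 ± 0.12 in *Eeyore* (adjusted p = 0.00432) and -0.27 ± 0.12 in *Winnie* mice (adjusted p = 0.137). This split between the strains depended on the scaling. With arrays centred on epithelial markers, *Guca2b* was also called lower in *Eeyore* mice (-0.57, adjusted p = 0.0215). *Gucy2c* was then also called lower in *Winnie* mice (-0.41, adjusted p = 0.0316).

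Compared directly, the 2 mutant strains, both with low *Xist* and high *Eif2s3y*, differed in 4 of 35 members, against 2.59% of all genes, and in all 4 the *Eeyore* level was the higher. These were *Slc20a1* (log2 0.75 ± 0.13, adjusted p = 0.0073), *Slc4a4* (0.65 ± 0.13, adjusted p = 0.0176), *Guca2b* (0.80 ± 0.17, adjusted p = 0.0296) and *Hsd11b2* (0.85 ± 0.20, adjusted p = 0.0497). Over all tested probe sets, 240 were called higher and 279 lower in *Eeyore* than in *Winnie* mice. The member calls depended on the scaling. Under median centring 1 was called, higher. With epithelial centring 1 was called higher and 1 lower, the latter being *Slc16a1* (-0.42, adjusted p = 0.0456). For *Slc20a1* and *Slc4a4* the *Eeyore* level thus lay between *Winnie* and wild-type. The second probe set of *Slc20a1* differed by 0.58 without passing (adjusted p = 0.411), and the other probe sets of *Slc4a4* by -0.01, 0.97 and 0.15 without passing. *Slc4a4* was not called without *Eeyore* mouse 3 (0.59, adjusted p = 0.0654), *Winnie* mouse 1 (0.61, adjusted p = 0.068) or *Winnie* mouse 3 (0.65, adjusted p = 0.0783). *Guca2b* was not called without *Eeyore* mouse 1 or 2, wild-type mouse 2 or *Winnie* mouse 2 or 3 (adjusted p from 0.0565 to 0.119). *Hsd11b2* was not called on leaving out any single mouse except *Eeyore* mouse 3 (adjusted p from 0.0592 to 0.13). *Best2* differed by 1.23 ± 0.33 without passing (adjusted p = 0.0866), and passed without wild-type mouse 3 (adjusted p = 0.031). The direct difference of *Sgk1* passed without *Eeyore* mouse 1 (-0.94, adjusted p = 0.0192), that of *Atp12a* without *Eeyore* mouse 3 (-0.93, adjusted p = 0.0073) and that of *Aqp1* without *Eeyore* mouse 3 (0.69, adjusted p = 0.0499).

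Other transport genes were called at shares not far from the members'. Of 54 tested, 7 were higher and 15 lower in *Winnie*, and 8 were higher and 17 lower in *Eeyore* mice, with medians of -0.31 and -0.19. These are 13% higher and 27.8% lower, and 14.8% higher and 31.5% lower, beside 11.3% and 11.9%, and 14% and 16.6%, of all genes. The balance turned with the scaling here too, to 15 higher and 8 lower, and 15 higher and 11 lower, under median centring. The largest calls in *Winnie* mice were rises of the efflux pump *Abcg2* (0.66), the glucose carrier *Slc2a1* (0.66), the dicarboxylate carrier *Slc13a2* (0.61) and carbonic anhydrase *Car9* (0.60), and falls of *Slc30a10* (-2.75), a manganese exporter, *Slc37a2* (-2.40), a sugar phosphate carrier, *Car8* (-2.17), a carbonic anhydrase relative without enzyme activity, and *Fxyd4* (-1.97), an aldosterone-induced regulator of the sodium pump. In *Eeyore* mice they were rises of *Slc3a1* (1.28), *Car13* (0.84), the zinc importer *Slc39a4* (0.82) and *Slc13a2* (0.81), and falls of *Car3* (-3.93), *Slc30a10* (-3.18), *Car8* (-2.03) and *Slc37a2* (-1.90). The mean signal of *Slc30a10* was 446 in wild-type, but 70 in *Winnie* and 56.9 in *Eeyore* mice, both under the filter level of 85.9. Like *Scnn1b*, *Slc30a10* was tested on account of its wild-type signals, and the size of its fall is uncertain. *Car3*, which adipocytes express strongly, fell beside the adipocyte markers given above, whose median log2 change in *Eeyore* mice was -3.44. A single gene was called in opposite directions, *Slc7a9*, which carries cystine together with the product of *Slc3a1*. It was at 487, 409 and 481 in wild-type, 272, 304 and 205 in *Winnie* mice and 546, 737 and 1081 in *Eeyore* mice (-0.83 and 0.73, adjusted p = 0.03 and 0.0416).

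Of 17 tested regulators of transport, 1 was higher and 4 lower in *Winnie*, and 2 were higher and 6 lower in *Eeyore* mice. These are 29.4% and 47.1% of the list, beside 23.2% and 30.6% of all genes. Under median centring 0 regulators were called lower in *Winnie* and 3 in *Eeyore* mice, and under epithelial centring 0 were called higher in either strain. *Prkg2*, the cyclic GMP-dependent kinase through which guanylin acts on channels, was lower in both (-1.33 and -1.58), as was adenylate cyclase *Adcy6* (-0.75 and -0.68). *Nr3c1*, the glucocorticoid receptor, was lower in both (-0.56 and -0.50), and *Pyy*, an antisecretory peptide hormone, was higher in both (0.57 and 0.44). The regulators named here were chosen after their values were seen. Markers of surface colonocytes, which carry much of the absorptive machinery, moved both ways. Of 9 tested, 1 was higher and 1 lower in *Winnie*, and 2 were higher and 4 lower in *Eeyore* mice, with summed signals of 138956 to 152692 in wild-type, 135425 to 153755 in *Winnie* and 139336 to 162845 in *Eeyore* mice.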

How the data were processed

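Large intestinal RNA of 9 mice (3 per group, grouped by the labels) was hybridized to 9 Affymetrix mouse genome arrays. The authors deposited linear signal intensities for 45101 probe sets, scaled to a mean of 500 after trimming 2% at each end. The algorithm behind them is not given in the sources used here. No further normalization was applied before taking log2. Of 45037 non-control probe sets, a total of 22519 were tested, those whose mean log2 signal reached the 50th percentile of 6.43 (85.9 on the linear scale). Each gene was read from the brightest probe set that the annotation gives to it alone. The annotation gave 34945 probe sets 1 symbol, 932 several and 9160 none. Some probe sets, by their suffix, can match related transcripts.

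The 3 group means were estimated in R 4.3.3 by limma 3.58.1 (lmFit, then eBayes with an intensity trend), and p-values were adjusted by the Benjamini-Hochberg method over the tested probe sets of each comparison, with a threshold of 0.05. Errors are standard errors of the fit. The fit was also run on simulated arrays in which few probe sets changed, in *Winnie* arrays alone and evenly up and down. Such arrays cannot show how the fit behaves with the many changes and the scaling differences seen here. The labels do not say whether mice of a group shared a litter or cage. The 37 members and all lists were chosen with earlier results of these data known. All members were named, with the 4 largest called changes of other transport genes per strain and direction. Alternatives were other scalings, filters and variance models, log2 of the signal plus 32, a 2-fold threshold, only the groups compared, the mean over probe sets, mouse number as a block and leaving out each mouse. Centring on epithelial markers and on the median of tested probe sets was added after the data were seen. Python 3.11.15 with matplotlib 3.10.9 drew the figures. The precision is limited by 3 arrays per group, and with 3 against 3 an exact permutation test cannot give a p below 0.1.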

Additional observations from a re-analysis of the deposited data

Results flagged for a closer look

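The change against wild-type differed between the strains, by the test of the difference itself in limma, for 4 members. The log2 change in *Eeyore* minus that in *Winnie* mice was 0.75 for *Slc20a1*, 0.65 for *Slc4a4*, 0.80 for *Guca2b* and 0.85 for *Hsd11b2*. The first 2 were lower than wild-type in both strains and less so in *Eeyore* mice. On the deposited scale *Guca2b* was called lower in *Winnie* mice alone, and *Hsd11b2* was called higher in *Eeyore* mice alone. With arrays centred on epithelial markers *Guca2b* was also called lower in *Eeyore* mice (-0.57, adjusted p = 0.0215), and the *Hsd11b2* call was lost. The wild-type mice cancel in the size of the difference between the strains, so that the sex-linked difference between wild-type and mutant arrays does not enter that size. They do enter its test, through the shared spread and the filter. Without wild-type mouse 2 the *Guca2b* call was lost (adjusted p = 0.0565), and with only the groups compared 2 members were called. The strain background of *Eeyore* mice and the allele cannot be told apart in the difference between the strains. None of these 4 differences passed in each of the alternatives.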

How the results depend on the processing

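Leaving aside the 2-fold threshold, member calls passed in each alternative for 10 of 14 in *Winnie*, 7 of 19 in *Eeyore* and 0 of 4 between the strains. Members called came to 8 in *Winnie* and 6 in *Eeyore* mice with a 2-fold threshold. Between the strains they came to 2 with centring on epithelial markers, 1 with median centring, 0 without the intensity trend, 2 with the groups compared alone, 0 at 2-fold, 1 with the mean over probe sets, and 1 to 6 when a mouse was left out. Probe sets called in *Winnie* mice numbered 4834, with 8087 under median centring, 1541 at 2-fold and 2896 to 5148 without a mouse. In *Eeyore* mice they numbered 6589, with 4326 under the filter at the 75th percentile and 2447 at 2-fold. Between the strains they numbered 519, with 282 without the intensity trend, 275 at 2-fold and 295 to 848 without a mouse. The causes were not tested. Direction turned under median centring for *Atp1b1* (0.27) and *Slc26a3* (0.31) in *Winnie* and *Car2* (0.01) and *Slc16a1* (0.04) in *Eeyore* mice, for *Slc16a1* also with the mean over probe sets (0.42), and for *Aqp8* in *Eeyore* mice without *Eeyore* mouse 3 (range over mice left out, -0.40 to 0.32). Values called under no setting were not read for direction. Of 9 correlations between mice of the same number in different groups, 1 exceeded 0.1 (-0.00821 to 0.164). No correlations between different numbers were set beside them, so they cannot show whether mouse numbers pair the samples. With the number as a replicate block, 16, 20 and 4 members and 4872, 6604 and 524 probe sets were called. *Scnn1g* and *Slc26a6* lay under the filter on dim signals.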
